A study of Mus musculus with 98 samples.

Results

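The 43 genes described here encode the machinery that copies DNA and the cyclins that carry a cell from G1 into S phase. They were chosen by name, with earlier results of these data known. Rows for all 43 were present among the 21812 gene symbols of every count table. The set holds the 6 origin recognition subunits (Orc1 to Orc6), 3 genes of helicase loading (Cdc6, Cdt1 and the inhibitor Gmnn), the 6 subunits of the MCM2-7 helicase, 6 genes of helicase activation (Cdc45, Gins1 to Gins4, Mcm10), 6 polymerase and primase subunits (Pola1, Pola2, Prim1, Prim2, Pold1, Pole), the sliding clamp Pcna with its 5 loader subunits (Rfc1 to Rfc5), 2 genes of lagging strand joining (Fen1, Lig1), 3 of nucleotide supply (Rrm1, Rrm2, Tyms), 2 E-type cyclins (Ccne1, Ccne2) and 3 D-type cyclins (Ccnd1, Ccnd2, Ccnd3).

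In G1, the origin recognition complex with CDC6 and CDT1 loads the MCM helicase onto DNA as an inactive double ring, a step called licensing, and geminin (Gmnn) blocks CDT1 once S phase has begun. CDC45 and the GINS complex then turn the ring into a running helicase, polymerase alpha and primase lay down primers, polymerases epsilon and delta extend them with the PCNA clamp, and FEN1 and LIG1 join the fragments of the lagging strand. D-type and E-type cyclins with their kinases release E2F factors from the retinoblastoma protein, and many of these genes are E2F targets. Pluripotent stem cells and the early epiblast are known for short G1 phases.

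RNA-seq was made from mouse TBLC, totipotent blastomere-like cells, kept in 2MYCP medium or moved to SLM medium. The groups used here are TBLC in 2MYCP (in the sorted-cell table, again at the start of a time course as TBLC, and as TBLC_Ctrl), TBLC_PlaB- after 8 hours in SLM, diffTBLC after 3 days in SLM, and 2 fractions of cells from 3 days in SLM separated by CD140, the CD140- cells named EPI-T and the CD140+ cells named PrE-T. Further diffTBLC groups received siRNA named siNC, siMettl3 or siVirma without another treatment, or siNC1, siVirma, siNC2 or siIgf2bp3 in courses of Actinomycin D, which stops transcription. Actinomycin D courses were read at 0, 1, 2 and 3 h, also in TBLC, diffTBLC, TBLC_Ctrl and TBLC_PlaB-, and RNA immunoprecipitations with anti-IGF2BP3 or anti-YTHDF2 came with their inputs from diffTBLC. The series title names RNA methylation and mRNA stability in the second cell fate decision as its subject.

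Every group had 2 libraries, and nothing in the labels says that they came from separate cultures, so every p-value speaks only of the variation among these libraries, possibly technical. The spread between the 2 libraries of a group, as chi-square per degree of freedom, was 5.439 to 10.56 in the sorted cells. In the TBLC and diffTBLC course it was 1.107 to 1.913, so p-values of different experiments rest on unlike spread. The 86 libraries with counts held between 2483808 and 29471283 counts, of which the 43 genes took between 0.4549% and 0.8496%. The lowest count of any of the 43 in any library was 23, and all 43 passed the filter on low counts in each table. In the sorted cells the summed level of 12 primitive endoderm markers was 343 to 345 CPM (counts scaled to equal library sizes) in EPI-T, 2125 to 2185 in TBLC and 23690 to 23700 in PrE-T, and that of 12 epiblast and naive pluripotency markers was 3686 to 3726, 2269 to 2275 and 1044 to 1050. A log2 difference below is the estimate of an edgeR quasi-likelihood fit ± its standard error, with p-values adjusted by Benjamini-Hochberg over all genes of the table and 0.05 as the threshold. These are bulk samples, so fewer cells with a transcript and less of it per cell cannot be told apart.

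RefSeq promoters (build GRCm38.p6, 250 bases before the start to 50 after it) were found for 32 of the 43 genes. An E2F-type octamer (TTTCCCGC, TTTCGCGC, TTTGCCGC or TTTGGCGC on either strand) stood in 13 of these 32, or 40.6%, against 2.6% of all 27025 genes with a promoter in that table. The CCAAT box bound by NF-Y, searched on both strands, stood in 20 of 32, or 62.5%, against 41.1% of all genes, and both motifs in 25% against 1.12%. Octamers can overlap each other, as in Mcm5 and Mcm6, and 1 of the octamers of Mcm7 overlaps a CCAAT box. The promoters of 4 helicase subunits that were all higher in EPI-T than in TBLC and in PrE-T are shown, with those of Cdc6, which stayed high in PrE-T, and Pola1, which was lowest there. Each runs 5′ to 3′ on the strand of its gene, with the octamers in capitals. They lie at chr1:20820263-20820562 (Mcm3, minus strand), chr8:75109259-75109558 (Mcm5, plus), chr1:128359656-128359955 (Mcm6, minus), chr5:138171834-138172133 (Mcm7, minus), chr11:98907901-98908200 (Cdc6, plus) and chrX:93632106-93632405 (Pola1, minus).
Mcm3: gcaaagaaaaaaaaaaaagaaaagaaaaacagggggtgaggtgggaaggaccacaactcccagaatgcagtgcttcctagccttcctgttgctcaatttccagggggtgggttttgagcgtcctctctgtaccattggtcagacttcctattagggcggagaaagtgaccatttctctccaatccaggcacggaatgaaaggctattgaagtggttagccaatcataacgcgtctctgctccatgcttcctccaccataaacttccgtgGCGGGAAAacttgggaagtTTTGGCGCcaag
Mcm5: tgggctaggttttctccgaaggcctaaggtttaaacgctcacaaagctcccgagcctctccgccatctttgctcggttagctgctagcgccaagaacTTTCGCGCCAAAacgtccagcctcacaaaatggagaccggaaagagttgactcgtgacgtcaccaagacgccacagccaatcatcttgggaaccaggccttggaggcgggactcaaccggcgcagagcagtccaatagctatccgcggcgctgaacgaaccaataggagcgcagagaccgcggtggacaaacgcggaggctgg
Mcm6: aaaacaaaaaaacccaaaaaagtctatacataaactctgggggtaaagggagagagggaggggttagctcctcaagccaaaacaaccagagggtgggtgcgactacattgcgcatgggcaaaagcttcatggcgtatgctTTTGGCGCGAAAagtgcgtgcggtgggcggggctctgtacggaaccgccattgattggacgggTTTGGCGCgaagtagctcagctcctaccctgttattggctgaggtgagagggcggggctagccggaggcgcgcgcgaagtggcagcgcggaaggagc
Mcm7: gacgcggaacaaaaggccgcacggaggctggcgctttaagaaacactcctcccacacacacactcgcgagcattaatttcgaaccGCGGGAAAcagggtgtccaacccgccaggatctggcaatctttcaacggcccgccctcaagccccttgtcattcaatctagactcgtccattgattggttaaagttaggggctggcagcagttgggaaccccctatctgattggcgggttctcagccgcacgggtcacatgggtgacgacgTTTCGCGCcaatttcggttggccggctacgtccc
Cdc6: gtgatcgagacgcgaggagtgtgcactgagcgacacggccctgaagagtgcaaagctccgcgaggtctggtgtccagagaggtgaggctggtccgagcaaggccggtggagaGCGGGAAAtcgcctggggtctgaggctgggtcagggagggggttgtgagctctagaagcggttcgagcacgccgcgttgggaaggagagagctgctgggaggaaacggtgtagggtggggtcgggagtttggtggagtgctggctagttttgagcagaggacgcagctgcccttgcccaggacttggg
Pola1: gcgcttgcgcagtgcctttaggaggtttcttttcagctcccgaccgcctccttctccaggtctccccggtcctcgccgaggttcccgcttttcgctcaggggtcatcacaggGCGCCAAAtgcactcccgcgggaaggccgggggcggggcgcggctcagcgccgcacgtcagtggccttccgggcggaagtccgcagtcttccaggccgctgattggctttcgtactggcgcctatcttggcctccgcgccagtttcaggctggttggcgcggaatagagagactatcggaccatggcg
Mcm3, Mcm5 and Mcm7 held 2 octamers each, Mcm6 held 3, and Cdc6 and Pola1 held 1 each. The promoter of Mcm2 held none, although its transcript moved with those of the other helicase subunits. A match is a description of these letters and not a bound site.

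The first comparison concerns how the replication genes differ between TBLC and the 2 fractions that arise from them in SLM. Of the 43 genes, 39 rose and 2 fell in EPI-T against TBLC, where 30.1% of all 14373 tested genes were higher and 34.8% lower. In PrE-T against TBLC 34 rose and 4 fell (20 and 12 when scaled to library totals), beside 33.5% higher and 33.8% lower of all genes. Between the fractions the direction turned: 2 of the 43 were higher and 34 lower in PrE-T than in EPI-T, where 35.8% of all genes were higher and 32.8% lower. The median log2 difference of the 43 was 1.01 for EPI-T against TBLC (all genes -0.07), 0.46 for PrE-T against TBLC (all genes -0.03) and -0.47 for PrE-T against EPI-T (all genes 0.03). The 3 comparisons share libraries and are therefore given side by side.

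**Figure D1:**
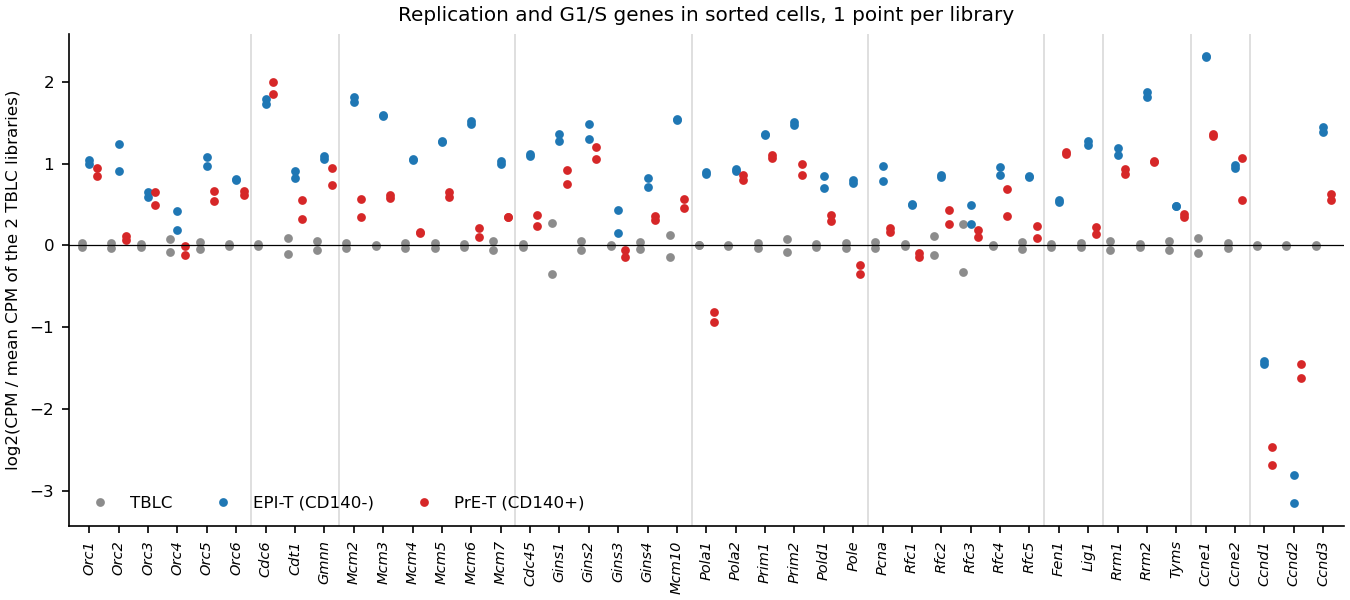
CPM of each of the 43 genes in each library of the sorted-cell table, divided by the mean of the 2 TBLC libraries (y axis, log2 scale), with genes along the x axis by role and grey lines between roles. Points are libraries of TBLC, EPI-T and PrE-T. EPI-T lies above PrE-T for most genes, both lie mostly above the TBLC level of 0, and Ccnd1 and Ccnd2 lie far below it.

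The 6 helicase subunits rose in EPI-T by log2 1.01 to 1.78 and in PrE-T by 0.16 to 0.62, where Mcm4 and Mcm6 turn below 0 under library totals. All 6 were lower in PrE-T than in EPI-T by log2 0.65 to 1.34. Mcm2 had 693 and 664 CPM in EPI-T, 251 and 292 in PrE-T and 192 and 202 in TBLC. Mcm6 had 561 and 578 CPM in EPI-T, 216 and 233 in PrE-T and 199 and 203 in TBLC. Mcm3 had 671 and 666 CPM in EPI-T, 332 and 339 in PrE-T and 221 and 222 in TBLC. For these 3 genes no library of one group overlapped another, which naming genes by their adjusted p largely imposes. EPI-T stood above both others. PrE-T lay between EPI-T and TBLC, which for Mcm6 depends on the scaling. PrE-T fell below EPI-T by log2 1.34 ± 0.055 for Mcm6 (adjusted p = 6.58e-13), 1.32 ± 0.065 for Mcm2 (7.44e-12) and 1.00 ± 0.049 for Mcm3 (9.09e-12). Mcm5 had the largest difference of the 6 between PrE-T and TBLC, 0.62 ± 0.054 (adjusted p = 2.06e-08). For Mcm6 that difference was 0.16 ± 0.055 (adjusted p = 0.0141) and it did not hold: scaled to library totals it was -0.16, and it missed the threshold without TBLC replicate 1 or PrE-T replicate 2 (adjusted p = 0.0746 and 0.0838). Mcm4 turned in the same way under library totals, to -0.16.

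Origin recognition genes were higher in EPI-T than in TBLC in 6 of 6 cases and in PrE-T in 4 of 6. Orc2 had 180 and 226 CPM in EPI-T, 101 and 104 in PrE-T and 94.1 and 97.7 in TBLC. It was the subunit most reduced in PrE-T against EPI-T (-0.99 ± 0.084, adjusted p = 1.26e-08), and its difference between PrE-T and TBLC missed the threshold (0.09, adjusted p = 0.366). Orc1, the largest subunit, had 108 and 104 CPM in EPI-T, 94.8 and 102 in PrE-T and 51.6 and 53.4 in TBLC. Both fractions were above TBLC for Orc1 (1.02 ± 0.070 in EPI-T, 0.90 ± 0.070 in PrE-T), while the difference between them, -0.115 ± 0.068, missed the threshold (adjusted p = 0.144). Orc3, Orc5 and Orc6 rose in both fractions (0.62, 1.03 and 0.81 in EPI-T, and 0.58, 0.61 and 0.64 in PrE-T), and Orc4 rose in EPI-T alone (0.31), with -0.06 in PrE-T.

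Of the loading genes, Cdc6 did not share the fall in PrE-T. It had 87.7 and 83.7 CPM in EPI-T, 91.0 and 101 in PrE-T and 25.1 and 25.5 in TBLC, so that the 2 fractions lay together, far above TBLC. Against TBLC its difference was 1.92 ± 0.082 in PrE-T (adjusted p = 1.98e-12) and 1.76 ± 0.082 in EPI-T (8.08e-12). Between the fractions it was 0.16 ± 0.076 (adjusted p = 0.0653), and without PrE-T replicate 1 it passed as higher in PrE-T (0.23, adjusted p = 0.037). Its partner Cdt1 had 97.2 and 103 CPM in EPI-T, 68.8 and 80.5 in PrE-T and 51.1 and 58.5 in TBLC, and fell in PrE-T against EPI-T by 0.43 ± 0.087. Gmnn, the CDT1 inhibitor, had 135 and 139 CPM in EPI-T, 126 and 109 in PrE-T and 67.6 and 62.9 in TBLC.

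All 6 activation genes were lower in PrE-T than in EPI-T (median -0.45), and 5 of 6 were higher in each fraction than in TBLC, though Cdc45 in PrE-T turns below 0 under library totals. Mcm10, which binds the helicase as it starts to unwind, had 232 and 230 CPM in EPI-T, 109 and 117 in PrE-T and 72.1 and 86.4 in TBLC. Cdc45 had 92.8 and 94.7 CPM in EPI-T, 51.1 and 56.3 in PrE-T and 42.9 and 44.1 in TBLC. Gins2 had 122 and 138 CPM in EPI-T, 103 and 114 in PrE-T and 47.3 and 51.4 in TBLC. Mcm10 and Cdc45 in PrE-T were thus near TBLC, and Gins2 was near EPI-T. Gins1 and Gins4 rose in both fractions, by 1.32 and 0.77 in EPI-T and by 0.85 and 0.33 in PrE-T. The exception among the 6 was Gins3, whose difference from TBLC missed the threshold in EPI-T (0.30 ± 0.14, adjusted p = 0.0663) and in PrE-T (-0.10 ± 0.14, adjusted p = 0.547).

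Among the 6 polymerase and primase genes, Pola1 and Pole were the 2 that fell in PrE-T against TBLC. Pola1, the catalytic subunit of polymerase alpha, had 202 and 198 CPM in EPI-T, 108 in each TBLC library and 56.6 and 61.4 in PrE-T. Pole, the catalytic subunit of the leading strand polymerase, had 191 and 185 CPM in EPI-T, 107 and 112 in TBLC and 92.8 and 85.8 in PrE-T. For both genes PrE-T was the lowest group, below TBLC by 0.88 ± 0.065 (Pola1, adjusted p = 2.86e-09) and 0.29 ± 0.064 (Pole, adjusted p = 0.000736). Pola1 had the lowest difference of all 43 genes between PrE-T and EPI-T, -1.76 ± 0.065 (adjusted p = 1.77e-13), and Pole stood at -1.08 ± 0.064. Pold1, the catalytic subunit of polymerase delta, rose by 0.78 in EPI-T and 0.34 in PrE-T. The primase subunits rose in both fractions, Prim1 from 45.9 and 44.3 CPM in TBLC to 97.3 and 95.0 in PrE-T and 116 and 115 in EPI-T. Pola2, the second subunit of polymerase alpha, did not follow Pola1: it had 86.3 and 87.8 CPM in EPI-T, 83.3 and 80.1 in PrE-T and 45.8 and 46.1 in TBLC, and its difference between the fractions, -0.09 ± 0.070, missed the threshold.

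The clamp Pcna and its loader rose in EPI-T in 5 of 6 cases and in PrE-T in 4 of 6, of which Pcna and Rfc5 turn below 0 under library totals. Rfc1, the large loader subunit, had 257 and 258 CPM in EPI-T, 183 and 180 in TBLC and 165 and 170 in PrE-T, and Rfc5 had 168 and 170, 97.5 and 91.5, and 100 and 111. Rfc1 in PrE-T lay below TBLC without passing the threshold (-0.11 ± 0.054, adjusted p = 0.0745), and it passed when scaled to library totals (-0.44, adjusted p = 1.2e-06). Rfc2 and Rfc4 rose in both fractions, by 0.85 and 0.91 in EPI-T and by 0.35 and 0.53 in PrE-T. Rfc3 in EPI-T missed the threshold (0.39 ± 0.17, adjusted p = 0.0592) and passed under 6 of the alternatives, among them without EPI-T replicate 2 (0.51) and without TBLC replicate 2 (0.71).

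The 2 genes of lagging strand joining parted between the fractions. Lig1, the ligase, had 485 and 505 CPM in EPI-T, 244 and 228 in PrE-T and 211 and 204 in TBLC. Fen1, the flap nuclease, had 127 and 128 CPM in EPI-T, 189 and 193 in PrE-T and 88.7 and 86.3 in TBLC. Fen1 was thus highest in PrE-T (0.58 ± 0.058 above EPI-T, adjusted p = 1.09e-07), and Lig1 in EPI-T (PrE-T lower by 1.07 ± 0.055, adjusted p = 1.44e-11). Rrm2, the regulated subunit of ribonucleotide reductase, had 593 and 569 CPM in EPI-T, 327 and 330 in PrE-T and 159 and 163 in TBLC. All 3 nucleotide genes rose in both fractions against TBLC, and Rrm2 and Rrm1 were lower in PrE-T than in EPI-T.

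In each fraction the largest difference from TBLC among the 43 genes was that of a cyclin. Ccne1, the E-type cyclin, had 366 and 364 CPM in EPI-T, 189 and 187 in PrE-T and 68.9 and 78.3 in TBLC, a rise of 2.31 ± 0.065 in EPI-T (adjusted p = 9.45e-15) and 1.35 ± 0.064 in PrE-T (7.34e-12). Ccnd1 had 240 and 239 CPM in TBLC, 87.4 and 90.1 in EPI-T and 43.5 and 37.1 in PrE-T, a fall of 1.43 ± 0.071 in EPI-T and 2.57 ± 0.075 in PrE-T. Ccnd2 had 130 and 129 CPM in TBLC, 47.2 and 42.1 in PrE-T and 14.5 and 18.5 in EPI-T, a fall of 2.98 ± 0.10 in EPI-T and 1.53 ± 0.094 in PrE-T. The third D-type cyclin moved the other way: Ccnd3 had 284 and 273 CPM in EPI-T, 153 and 162 in PrE-T and 104 and 105 in TBLC. The fractions therefore differed in which D-type cyclin was lowest, with Ccnd2 in PrE-T above its EPI-T level (1.44 ± 0.11, adjusted p = 1.77e-09) and Ccnd1 lower there (-1.14 ± 0.075, adjusted p = 4.41e-10). Ccne2 rose in both fractions, and its libraries overlapped between them (55.8 and 54.7 CPM in EPI-T, 59.6 and 41.5 in PrE-T).

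**Figure D2:**
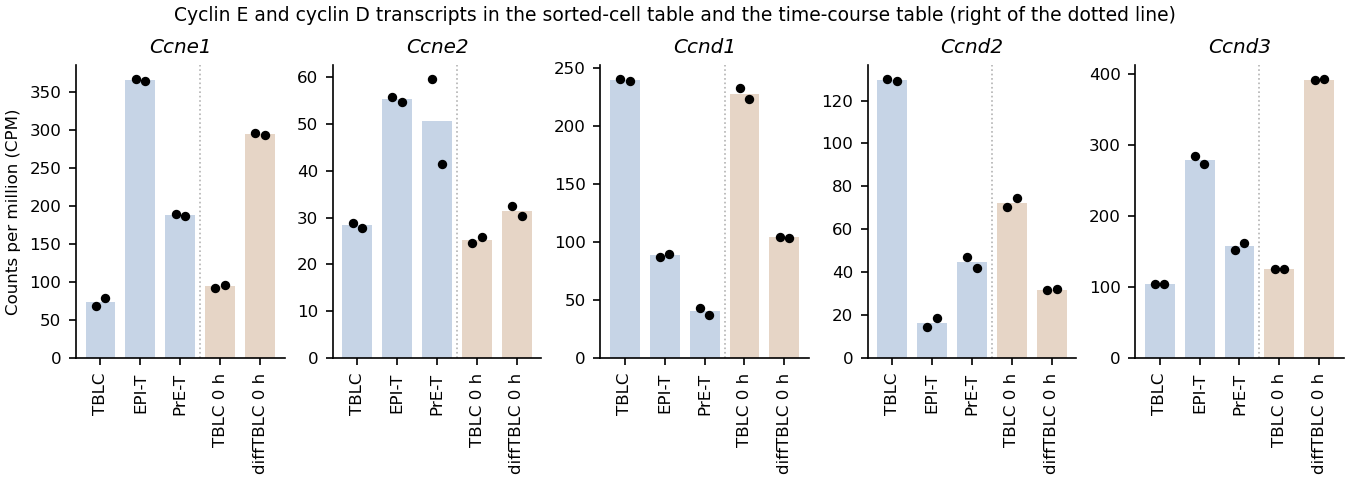
CPM (y axis, starting at 0) of the 2 E-type and 3 D-type cyclin genes in TBLC, EPI-T and PrE-T of the sorted-cell table and, right of the dotted line, in TBLC and diffTBLC at 0 h of the time-course table. Points are libraries, bars the mean of 2, and the 2 tables were scaled separately. Ccnd1 and Ccnd2 are highest in TBLC, and Ccne1 and Ccnd3 lowest there.

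Markers of fibroblasts and feeder cells moved with the TBLC comparisons. The summed level of 16 such markers was 1483 to 1535 CPM in TBLC, 253 to 258 in PrE-T and 68.9 to 69.8 in EPI-T, where 2 of the 16 had no count, and all 16 were lower in each fraction than in TBLC. Their part in the differences from TBLC was not tested. Scaling mattered most for PrE-T against TBLC. Scaled to library totals, the median of all genes moved by -0.32 and 20 of the 43 genes were higher and 12 lower, with Cdc45, Pcna, Rfc5 and Lig1 also changing sign. The median of the 43 was then 0.14, against -0.35 for all genes. In EPI-T against TBLC 38 were higher and 2 lower under that scaling, with a shift of all genes of -0.21.

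In unsorted cultures the same comparison was made in other libraries: diffTBLC at 0 h of their course against TBLC at 0 h, all from Actinomycin D courses before any hour had passed. Here 37 genes rose and 6 fell (Ccnd1, Ccnd2, Pola1, Pole, Rfc1 and Mcm4), where 42.8% of all 14463 genes were higher and 39.7% lower. The median of the 43 was 0.53, against 0.02 for all genes. All 43 passed the threshold, as did 82.5% of all genes. Ccnd3 rose from 125 CPM in each TBLC library to 391 and 392, and Ccne1 from 92.1 and 96.1 to 295 and 293, both by log2 1.65. Ccnd1 fell from 233 and 223 CPM to 104 in both diffTBLC libraries (-1.13 ± 0.031, adjusted p = 5.12e-51), and Ccnd2 from 70.3 and 74.6 to 31.6 and 32.1 (-1.18 ± 0.050).

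The other 4 that fell did so less. Pola1 went from 103 and 105 CPM to 59.1 and 63.7 (-0.76 ± 0.039), Rfc1 from 150 and 156 to 114 and 119 (-0.39 ± 0.032) and Pole from 110 and 112 to 90.8 and 88.9 (-0.30 ± 0.035). Mcm4 went from 303 and 302 CPM to 277 and 272 (-0.14 ± 0.025), alone among the helicase subunits. The other 5 rose by 0.30 to 0.64, with Mcm7 going from 317 and 315 CPM to 491 in both libraries. Among the rest, Gins2 rose from 33.3 and 36.4 CPM to 73.6 and 73.2 (1.08 ± 0.048), Rrm2 from 219 and 218 to 438 and 444 (1.01 ± 0.025), Gmnn from 64.4 and 63.4 to 124 and 127 (0.97 ± 0.037), Cdc6 from 43.8 and 45.1 to 79.4 and 84.2 (0.88 ± 0.043) and Orc6 from 89.7 and 85.3 to 156 and 153 (0.82 ± 0.033). Under library totals 32 rose and 6 fell, and all genes moved by -0.21.

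The sorted and time-course tables share no library. All 4 genes that fell in PrE-T against TBLC (Pola1, Pole, Ccnd1 and Ccnd2) were among the 6 that fell in diffTBLC, which is 100% of the first list and 66.7% of the second. Since 37 of the 43 rose in diffTBLC, lists of genes that rose must share most members whatever their relation, and the 33 shared with PrE-T (97.1% and 89.2%) and 35 with EPI-T (89.7% and 94.6%) are given for completeness. The feeder markers were again lower after SLM, at 504 to 513 CPM in TBLC and 301 to 307 in diffTBLC, with 13 of 16 lower and 2 higher, and primitive endoderm markers rose from 495 to 509 CPM to 4924. Whether either took part in the differences was not tested.

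Other genes of the same pathways, from lists drawn up with earlier results of these data known, were counted in the same way. Of 36 further replication genes, 33 rose and 1 fell in EPI-T, 25 rose and 7 fell in PrE-T, and 26 rose and 7 fell in diffTBLC, each against TBLC. Between the fractions 2 were higher and 25 lower in PrE-T, among them Rpa1, which coats single-stranded DNA (-0.93 ± 0.058), and the nuclease Dna2 (-1.26 ± 0.083), while Tk1, a thymidine salvage kinase, was higher there (0.90 ± 0.086). Of 20 mitosis genes, 20 rose in EPI-T, 16 rose and 2 fell in PrE-T, and 17 rose and 2 fell in diffTBLC.

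The 27 G1/S regulators were more mixed, with 16 higher and 7 lower in EPI-T, 13 and 9 in PrE-T and 13 and 11 in diffTBLC. Cdkn1a, which encodes the kinase inhibitor p21, averaged 161 CPM in TBLC, 43.9 in PrE-T and 20.4 in EPI-T (-1.87 ± 0.085 and -2.98 ± 0.092 against TBLC), and it fell in diffTBLC too (-1.54 ± 0.028). Cdkn1c, which encodes the inhibitor p57, averaged 160 CPM in EPI-T against 12.0 in TBLC and 14.4 in PrE-T (3.73 ± 0.090 in EPI-T), and rose in diffTBLC by 4.07 ± 0.058. The repressor E2f8 averaged 258 CPM in EPI-T, 101 in PrE-T and 31.0 in TBLC. The 2 inhibitors thus moved in opposite directions in EPI-T and in diffTBLC.

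After 8 hours in SLM no replication gene passed the test. At 0 h none of the 43 passed the edgeR threshold between TBLC_PlaB- and TBLC_Ctrl, where 1.25% of all 14107 genes did. DESeq2 also called 0. In edgeR 6 of the 43 had an unadjusted p under 0.05, as did 1407 of all 14107 genes. The differences ran from -0.13 to 0.12, and that of Mcm7 (454 and 447 CPM in TBLC_Ctrl, 434 and 420 in TBLC_PlaB-) was -0.08 ± 0.024, with adjusted p = 0.111, and 0.0496 with a replicate block.

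Over the 1, 2 and 3 h libraries of the same course 8 genes were higher and 4 lower in TBLC_PlaB-, where 12.8% of all genes were higher and 7.84% lower. Ccnd2 had 98.9, 95.1, 109, 108, 113 and 107 CPM in the 6 TBLC_Ctrl libraries and 112, 122, 124, 128, 144 and 143 in the 6 of TBLC_PlaB-, hour by hour, so that TBLC_PlaB- was above TBLC_Ctrl at each hour (0.30 ± 0.022, adjusted p = 9.89e-23). Rrm2 was higher by 0.17 ± 0.017 and Ccnd1 by 0.14 ± 0.015, and Fen1 was lower by 0.11 ± 0.020. The counts differed by hour, with 11 higher and 5 lower at 1 h, 2 and 1 at 2 h and 4 and 2 at 3 h. The 1 h libraries stood apart across the table, with 32.1% of all genes called against 2.99% at 2 h and 11.2% at 3 h. Over all 3 hours together DESeq2 called 4 higher and 2 lower. At 2 h Ccnd1 missed the threshold (0.08, adjusted p = 0.0794), and Fen1 missed it at 2 h and 3 h (-0.07 and -0.03).

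The Actinomycin D courses address how fast each transcript is lost when no new one is made. Without a spike-in, a slope in log2 units per hour is relative to the other transcripts of the library. It orders transcripts by how fast they were lost and gives no half-life. Cdt1, which brings the helicase to origins, had the lowest slope of the 43 in each of the 8 arms, level with Orc1 in siIgf2bp3. In TBLC it had 100 and 98.0 CPM at 0 h, 82.1 and 80.4 at 1 h, 57.2 and 56.6 at 2 h and 31.7 and 32.8 at 3 h, and in diffTBLC 162 and 162, 110 and 109, 85.7 and 84.2, and 60.4 and 53.8. Its level fell at every step in both arms, with slopes of -0.53 ± 0.034 (adjusted p = 6.77e-11) and -0.49 ± 0.033 (2.2e-10). In TBLC_Ctrl and TBLC_PlaB- its slopes were -0.50 ± 0.028 and -0.51 ± 0.028.

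The other 5 of the 6 lowest slopes were the same genes in each of TBLC, diffTBLC, TBLC_Ctrl and TBLC_PlaB-: the loader Cdc6, Gins3, Orc1, Ccne2 and Mcm10. Cdc6 fell from 43.8 and 45.1 CPM at 0 h to 18.6 and 18.1 at 3 h in TBLC (-0.41 ± 0.027 per hour) and from 79.4 and 84.2 to 42.996 and 43.3 in diffTBLC (-0.29 ± 0.026). Gins3 fell from 17.9 and 19.6 to 8.08 and 8.93 in TBLC (-0.37 ± 0.032) and from 22.6 and 23.2 to 13.0 and 12.8 in diffTBLC (-0.28 ± 0.032). Orc1 fell by 0.30 and 0.31 per hour in these 2 arms, Ccne2 by 0.27 and 0.26 and Mcm10 by 0.13 and 0.16. The other origin and helicase genes did not share this, and in TBLC all 6 MCM2-7 genes had a slope above 0 (median 0.18). Of the 6 origin recognition genes 2 were higher, 1 (Orc1) was lower and 3 were not called. Both results rest on a scale that a change of scaling can shift. Without the 0 h libraries Rfc3 took the place of Ccne2 in TBLC and in TBLC_Ctrl.

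The count of slopes in each direction depends on the scaling. A slope is tested against 0, which the scaling sets, and the median slope of all genes in TBLC was 0.038. With the scaling of all other results, 29 slopes were called above 0 and 7 below it in TBLC (37.2% and 28.1% of all genes). The counts were 26 and 8 in diffTBLC (30.8% and 28.6%), 20 and 9 in TBLC_Ctrl (29.1% and 32.7%) and 22 and 12 in TBLC_PlaB- (31.0% and 34.2%). Scaled to library totals they were 9 and 14, 6 and 18, 4 and 19, and 6 and 26, and scaled to ribosomal protein genes 0 was higher and 41, 42, 43 and 43 were lower. The median slope of all genes moved by -0.12 and -0.31 in TBLC under these 2 scalings, so only the order of the genes is read here. At the slow end stood Prim2 (0.26), Rfc2 (0.22) and Lig1 (0.21) in TBLC, and Tyms (0.27), Ccnd3 (0.21) and Rfc2 (0.21) in diffTBLC; under ribosomal protein scaling Prim2, Lig1 and Tyms turned below 0 in both arms.

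**Figure D3:**
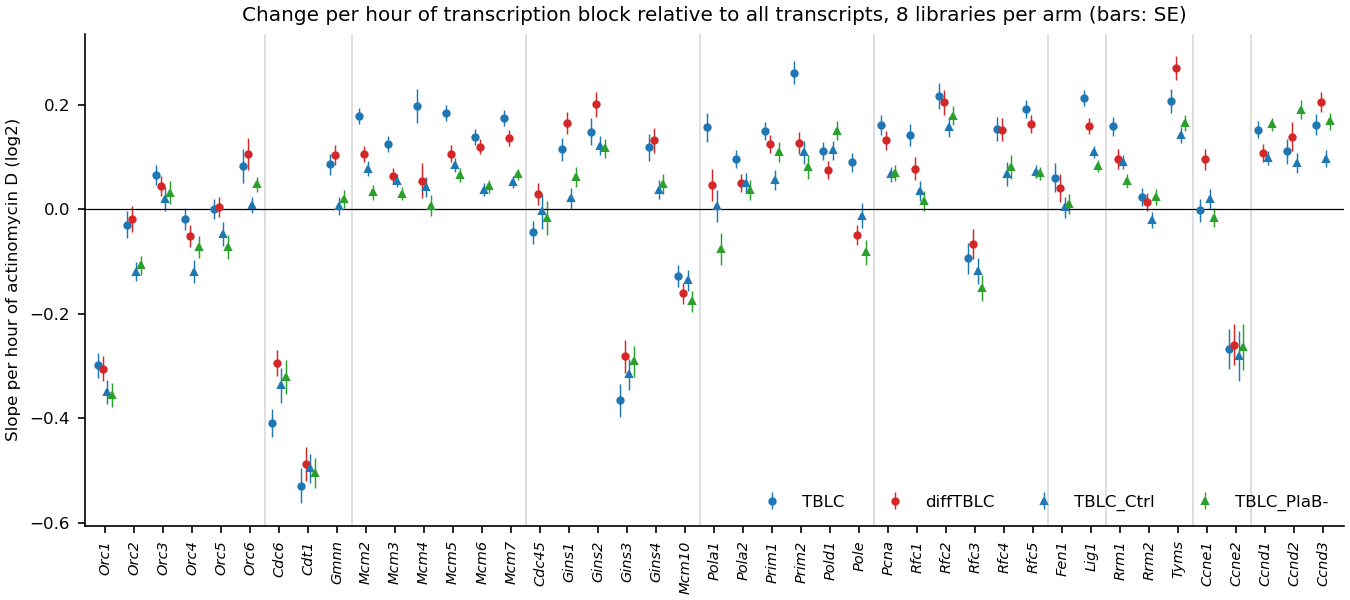
Slope of each of the 43 genes under Actinomycin D (y axis, log2 units per hour, relative to all transcripts) in the TBLC, diffTBLC, TBLC_Ctrl and TBLC_PlaB- arms, by role along the x axis. Points are fitted slopes over 8 libraries an arm and bars their standard errors. Cdt1, Cdc6, Gins3, Orc1, Ccne2 and Mcm10 are the 6 lowest in each arm.

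Between diffTBLC and TBLC the slopes of 1 gene were higher and of 4 lower in diffTBLC, where 2.56% and 5.66% of all genes were. Pole had a slope of 0.09 in TBLC and -0.05 in diffTBLC (difference -0.14 ± 0.026, adjusted p = 0.00312), Prim2 of 0.26 and 0.13, Mcm5 of 0.18 and 0.11 and Mcm2 of 0.18 and 0.11, while Ccne1 went from -0.002 to 0.096. Without the 0 h libraries all 5 passed with the same sign (Pole -0.18, Ccne1 0.186). In that fit 14 of the 43 genes were higher and 9 lower. The shares of all genes above belong to the fit with the 0 h libraries and cannot be set beside these counts. Without either diffTBLC replicate only Ccne1 of the 5 passed (0.162 and 0.156), with Pole at -0.071 and -0.086, Mcm5 at -0.028 and -0.005 and Mcm2 at -0.016 and -0.009. Without either TBLC replicate none of the 5 passed, with Pole at -0.121 and -0.158 and Ccne1 at 0.105 and 0.09. Between TBLC_PlaB- and TBLC_Ctrl no slope differed by the edgeR test (0.411% of all genes did). An unadjusted p under 0.05 was found for 5 of the 43 and for 1682 of all 14107 genes.

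The siRNA experiments asked whether writers and readers of RNA methylation affect these transcripts. The libraries labelled siMettl3 had 26.9 ± 0.76 CPM of Mettl3 (SD, n = 2) against 30.4 ± 1.1 in siNC, a difference of -0.18 ± 0.15 that missed the threshold. No fall of the target was thus detected in the libraries labelled siMettl3. None of the 43 genes differed there by edgeR or by DESeq2, and edgeR called 0.865% of all 12141 genes. An unadjusted p under 0.05 in edgeR was found for 3 of the 43 and for 1193 of all 12141 genes. Virma was lower in siVirma (84.0 ± 4.3 against 118 ± 5.2 CPM, -0.50 ± 0.085, adjusted p = 1.88e-06). There 4 genes were higher and 0 lower by edgeR, where 3.48% and 3.63% of all genes were.

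Those 4 changes in siVirma were small. Mcm6 had 305 and 313 CPM in siNC and 363 and 355 in siVirma (0.22 ± 0.048, adjusted p = 0.000611), and Pcna 267 and 270 against 314 and 312 (0.22 ± 0.051, adjusted p = 0.000945). Pole had 163 and 153 CPM against 177 and 187 (adjusted p = 0.0309), and Mcm3 403 and 390 against 451 and 421 (0.0349). The groups did not overlap for any of the 4, which their selection as called genes largely imposes. The summed level of the 12 primitive endoderm markers was 8969 to 9136 CPM in siNC, 7760 to 7837 in siMettl3 and 5753 to 5755 in siVirma. Of the 12, 9 were lower in siMettl3 and 11 in siVirma. Mcm6, Pcna, Pole and Mcm3 were all lower in PrE-T than in EPI-T, as were 34 of the 43 genes in all. The part of the primitive endoderm markers in the differences was not tested. DESeq2 and a fit without the filter on low counts called 2 of the 4 and lost Pole and Mcm3 (adjusted p = 0.27 and 0.271 in DESeq2). Pole was also lost without siNC replicate 1 or 2 or siVirma replicate 2, and Mcm3 without siNC replicate 1 or 2 or siVirma replicate 1.

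In the Actinomycin D courses with siRNA, the control libraries stood apart by hour. Mcm4 had 122 and 128 CPM at 0 h in siNC1, 310 and 317 at 1 h, 255 and 261 at 2 h and 377 in both at 3 h, and in siNC2 117 and 109, 334 and 339, 267 and 271, and 393 and 404. In siVirma it held 206 to 251 CPM over all 8 libraries. In siIgf2bp3 it held 228 to 260 CPM up to 2 h and 159 and 173 at 3 h. Both controls therefore went up and down with the hour in the same order. Pola1 had 45.8 and 40.0 CPM at 0 h, 77.9 and 77.7 at 1 h, 60.0 and 57.2 at 2 h and 86.3 and 79.1 at 3 h in siNC1, and 45.4 to 54.4 over all 8 siVirma libraries. Rfc2 ran the opposite way in siNC1, with 209 and 225 CPM at 0 h and 132 and 130 at 1 h. Primitive endoderm markers in siNC1 were at 2961 to 2980 CPM at 0 h and 4334 to 4446 at 1 h, in siNC2 at 2913 to 2966 and 5273 to 5376, and in siVirma at 1688 to 1718 and 1734 to 1735. Their part in the differences below was not tested.

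**Figure D4:**
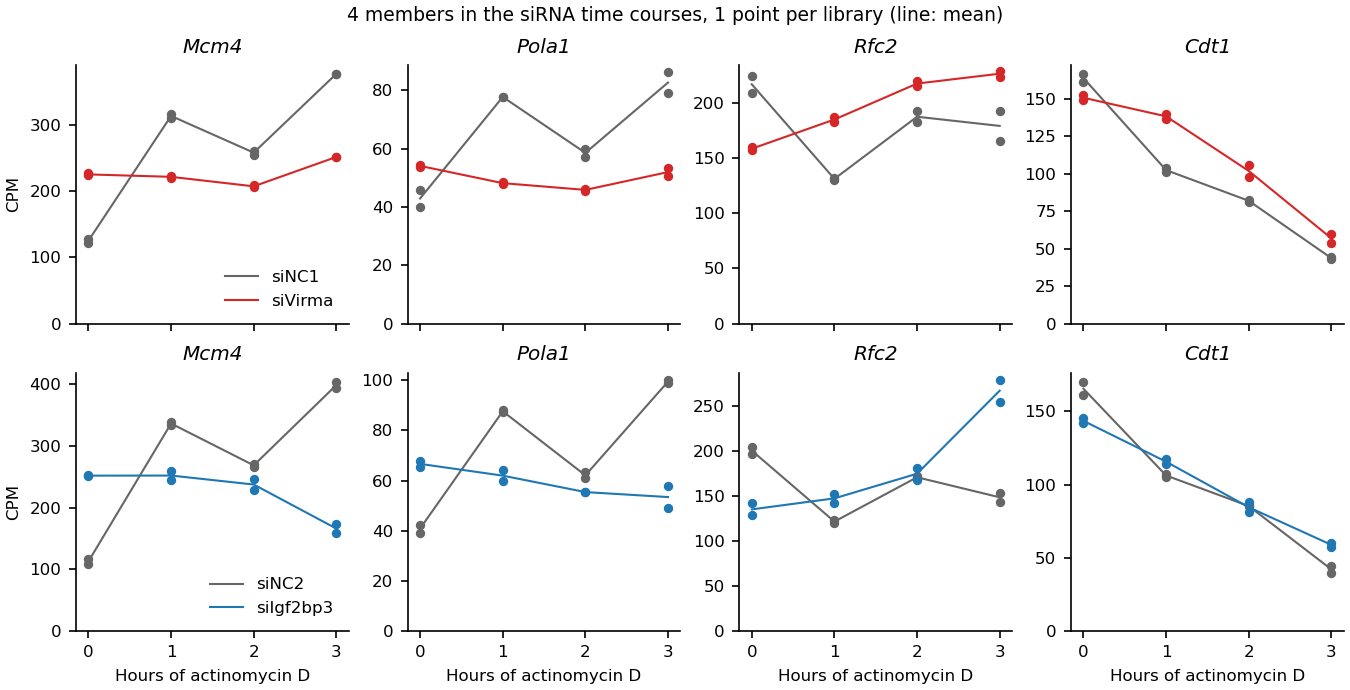
CPM (y axis, starting at 0) of Mcm4, Pola1, Rfc2 and Cdt1 at 0, 1, 2 and 3 h of Actinomycin D (x axis, hours) in the siNC1 and siVirma course and the siNC2 and siIgf2bp3 course. Points are libraries and lines join the means of 2. The Mcm4 level of both controls is lowest at 0 h and goes up, down and up again, while that of siVirma stays between 206 and 251.

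At 0 h 22 of the 43 genes were higher and 14 lower in siVirma than in siNC1, where 33.1% and 27.2% of all 13664 genes were, and over 1 to 3 h 18 were higher and 14 lower (35.5% and 36.0%). Against siNC2, siIgf2bp3 had 21 higher and 14 lower at 0 h (41.2% and 24.6% of all 13580 genes) and 19 and 17 over 1 to 3 h (32.9% and 37.1%). Scaled to library totals these became 27 and 4, 19 and 13, 24 and 8, and 9 and 24. The shares of all genes above do not apply to that scaling, so these counts show only that the numbers depend on it. Mcm4 was higher at 0 h, by 0.85 ± 0.043 in siVirma and 1.16 ± 0.048 in siIgf2bp3, and lower over 1 to 3 h, by 0.47 ± 0.023 and 0.62 ± 0.026. By hour the counts were 17 and 11, 11 and 8, and 9 and 11 in siVirma, and 15 and 15, 2 and 2, and 19 and 18 in siIgf2bp3, and they followed the share of all genes called at each hour (59.7%, 44.8% and 56.6%, and 52%, 14.5% and 68.3%). The targets themselves behaved unevenly: Virma was lower by 0.27 ± 0.061 at 0 h and 1.04 ± 0.035 over 1 to 3 h, whereas Igf2bp3 in the libraries labelled siIgf2bp3 was 0.56 ± 0.079 higher at 0 h and 0.58 ± 0.041 lower over 1 to 3 h.

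Cdt1 and Gins3 were lost fast in these 4 arms as well. The slopes of Cdt1 were -0.60 in siNC1, -0.46 in siVirma, -0.62 in siNC2 and -0.43 in siIgf2bp3, and those of Gins3 -0.36, -0.30, -0.33 and -0.31. Of the 43 slopes 16 were higher and 5 lower in siNC1 (23.2% and 21.8% of all genes), 13 and 8 in siVirma (15.9% and 22.2%), 17 and 4 in siNC2 (21.8% and 22.8%) and 20 and 8 in siIgf2bp3 (27.0% and 26.6%). Scaled to ribosomal protein genes, 0 and 1 were in siNC1, 0 and 1 in siNC2 and 0 and 43 in siIgf2bp3. Over all 8 arms 2 genes, Cdt1 and Gins3, were lower in every arm and 4 were higher in every arm. In different arms 4 were called in opposite directions, and all these counts are on the scale of the other results. The share of all genes that did so is not given here, so the counts do not set the 43 apart. Slopes differed between siVirma and siNC1 for 2 genes, Pcna (-0.20 ± 0.039) and Mcm5 (-0.10 ± 0.029), where 8.94% of all genes were called, and for none when any replicate or the 0 h libraries were left out. Between siIgf2bp3 and siNC2, 15 slopes were higher and 16 lower (26.4% and 26.0% of all genes), and without the 0 h libraries 0 were.

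The immunoprecipitations give the level of each transcript in precipitates of 2 RNA readers from diffTBLC relative to the inputs. IGF2BP3 is known for stabilising target mRNAs and YTHDF2 for promoting the decay of methylated ones. With anti-IGF2BP3 12 genes were higher in the precipitate and 30 lower, where 35.0% and 34.8% of all 12904 genes were, and the median of the 43 was -0.48 against -0.01 for all genes. With anti-YTHDF2 7 were higher and 29 lower (40.2% and 38.8% of all 12364 genes), with a median of -0.46 against 0.02. Most replication transcripts were thus lower than in the input with both antibodies, with a few far above the rest. The 2 sets of inputs differed in their 12 primitive endoderm markers, at 8494 to 8673 CPM for anti-IGF2BP3 and 1183 to 1192 for anti-YTHDF2. In the precipitates these markers were at 19020 to 19050 and 1223 to 1224 CPM. Of the 12, 10 were higher and 1 lower with anti-IGF2BP3, and 5 and 1 with anti-YTHDF2. What these levels do to the values of the antibodies was not tested. Under library totals 7 were higher and 30 lower with anti-IGF2BP3, with Mcm10, Pold1 and Ccne1 changing sign, and all genes moved by -0.20.

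Ccnd2 led with anti-IGF2BP3. It had 73.5 and 76.9 CPM in the inputs and 530 and 533 in the precipitates, a difference of 2.82 ± 0.047 that ranked 46 from the top of 12904 genes. Rfc1 went from 208 and 199 CPM to 335 in both (0.72 ± 0.040), and Lig1 from 263 and 259 to 375 and 374 (0.52 ± 0.037). The other D-type cyclins did not share the level of Ccnd2, with Ccnd1 at 0.36 ± 0.070 and Ccnd3 at -0.32 ± 0.040. At the low end, Gins1 went from 32.1 and 33.3 CPM to 13.7 and 13.3 (-1.28 ± 0.12), Gmnn from 63.9 and 68.5 to 29.7 and 30.2 (-1.14 ± 0.083) and Pcna from 173 and 176 to 81.2 and 80.1 (-1.11 ± 0.052). Input and precipitate did not overlap for any of these 6, which naming genes by their difference largely imposes. Among the G1/S regulators, Cdk6, a kinase partner of the D-type cyclins, was higher (1.71 ± 0.067) and its relative Cdk4 lower (-1.22 ± 0.053).

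With anti-YTHDF2 3 other genes stood out. Gins3 went from 18.7 and 21.7 CPM in the inputs to 123 and 134 in the precipitates (2.66 ± 0.12, adjusted p = 3.32e-32), rank 221 of 12364. Fen1 went from 72.2 and 74.6 CPM to 326 and 335 (2.17 ± 0.074), and Mcm10 from 99.4 and 103 to 290 and 292 (1.52 ± 0.070). Of these 3, Gins3 and Mcm10 were also among the 6 fastest lost under Actinomycin D. Of the rest of those 6, Cdt1 and Cdc6 (-0.32 each) and Orc1 (means of 64.8 to 49.0 CPM) were lower in this precipitate. Ccne2 (means of 8.79 to 11.7 CPM) was not called. At the low end were Rfc4 (64.5 and 61.6 CPM to 17.4 and 17.2, -1.87 ± 0.12), Orc4 (49.1 and 52.3 to 14.0 and 15.8, -1.76 ± 0.13) and Ccnd3 (369 and 386 to 125 and 112, -1.67 ± 0.062).

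**Figure D5:**
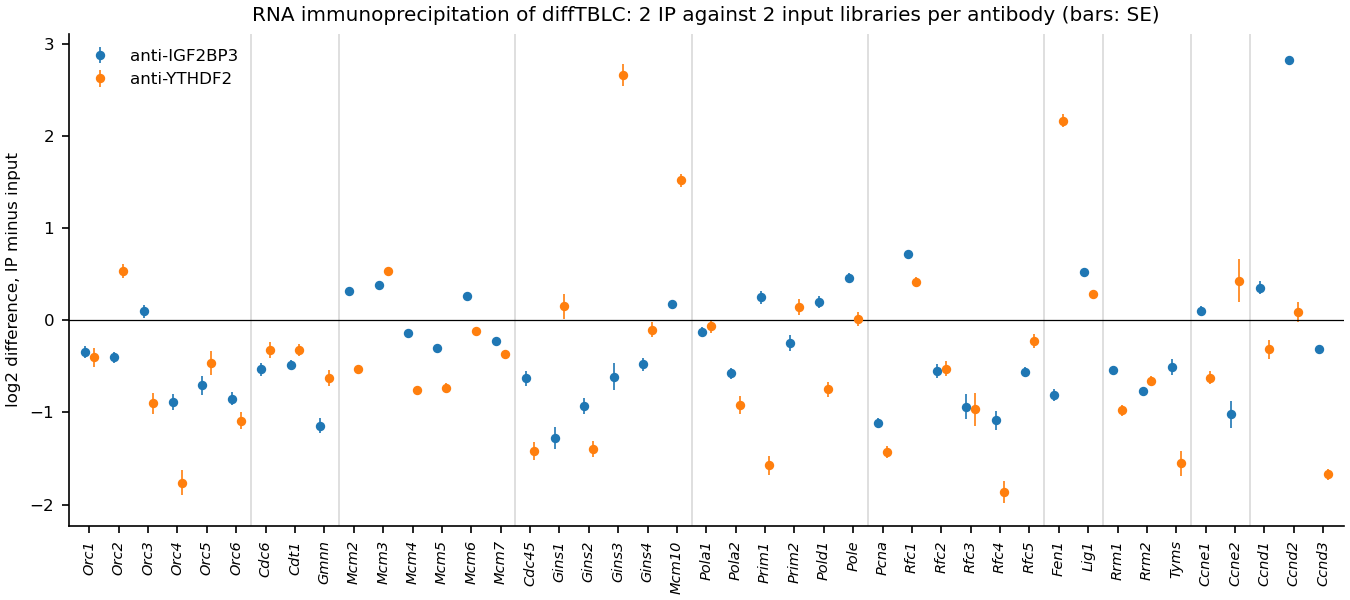
log2 difference between precipitate and input (y axis, log2 units) of each of the 43 genes for anti-IGF2BP3 and anti-YTHDF2 in diffTBLC, by role along the x axis. Points are fitted differences from 2 precipitates against 2 inputs and bars their standard errors. Most genes lie below 0 for both antibodies, and Ccnd2 (2.82, anti-IGF2BP3) and Gins3, Fen1 and Mcm10 (2.66, 2.17 and 1.52, anti-YTHDF2) stand above the rest.

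The 2 precipitations share no library. Mcm3, Mcm10, Rfc1 and Lig1 were higher in both, 33.3% of the anti-IGF2BP3 list and 57.1% of the anti-YTHDF2 list, and 22 genes were lower in both, 73.3% and 75.9%, which lists of 30 and 29 out of 43 largely impose. Ythdf2 mRNA itself was higher with its own antibody (1.92 ± 0.073), and Igf2bp3 mRNA was 0.26 ± 0.066 higher with anti-IGF2BP3. No precipitate with a control antibody was analysed here, so background binding cannot be told apart from binding by these proteins. Of the 36 other replication genes, 10 were higher and 18 lower with anti-YTHDF2, with a median of -0.16. Among the higher ones were Dbf4, the activator of the CDC7 kinase (2.08 ± 0.080), and Ticrr (1.56 ± 0.074), which works in helicase activation.

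Reads of some of the 43 genes may be shared with neighbours or copies. In the RefSeq gene table of build GRCm38.p6, 14 of the 43 overlapped another coding or long non-coding gene, and 3 (Pcna, Ccnd3 and Tyms) have a pseudogene named after them. How reads between them were assigned is not stated.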

How the data were processed

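The authors deposited tables of raw counts per gene, one table per experiment. Per the submitters' processing notes, FastQC 0.12.1, Trim Galore, STAR 2.7.11b, Subread, DESeq2 and the build mm39 were used, with no further settings given here, and whether counting used strand is not given in the sources used here. Per the labels' protocols, RNA was extracted with TRIzol and 2 stranded kits were used on 2 sequencers, and which library had which is not given. Columns named TBLC_S were read as TBLC_PlaB-. The 43 genes and all other lists were chosen with earlier results of these data known. Each table was fitted on its own in R 4.3.3 with edgeR 4.0.16 (TMM scaling, filterByExpr, quasi-likelihood test, Benjamini-Hochberg over all genes, threshold 0.05), with all groups of the table sharing the estimate of the spread. A slope is the coefficient of hours in 1 arm. CPM are counts scaled to equal library sizes with the TMM factors. The alternatives were RLE factors, library totals, ribosomal protein genes as the scale for slopes, no filter on low counts, a replicate block, only the libraries compared, DESeq2 1.42.0, no 0 h libraries, and each library left out. Splits by hour were added after seeing the data. Genes were named with library values when they had the lowest adjusted p of their role or went against it, and up to 4 genes per other list by adjusted p. No 2 libraries of a group were identical. The count code was tested on simulated data. TBLC2 had no comparison group, and m6A libraries were not used here.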

Additional observations from a re-analysis of the deposited data

Results flagged for a closer look

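The difference in slope under Actinomycin D between diffTBLC and TBLC passed edgeR's quasi-likelihood test for 5 of the 43 genes. In log2 units per hour it was -0.139 for Pole, -0.134 for Prim2, -0.077 for Mcm5, -0.073 for Mcm2 and 0.099 for Ccne1. Without the 0 h libraries all 5 passed with the same sign. Without either diffTBLC replicate only Ccne1 of the 5 passed, and without either TBLC replicate none of them did.

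Between siVirma and siNC1 the slopes of 2 genes differed, with -0.201 for Pcna and -0.103 for Mcm5. Neither passed with any replicate left out, nor without the 0 h libraries.

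Between siIgf2bp3 and siNC2, 15 of the 43 slopes were higher and 16 lower, led by Mcm4 (-0.665), Rfc2 (0.411) and Tyms (0.354). Without the 0 h libraries 0 were higher and 0 lower. The 0 h libraries of siNC2 had 117 and 109 CPM of Mcm4 and those of siIgf2bp3 252 each, and Igf2bp3 was higher in the latter at 0 h, so that the label is not matched by its target there. Scaled to ribosomal protein genes, Rfc2 and Tyms turned to -0.219 and -0.268.

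A further pair of libraries, TBLC2, entered no comparison, and all 43 genes were above 3 counts in both.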

How the results depend on the processing

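Each comparison was recomputed under the alternatives. Of the counts of the 43 genes, 447 stayed within 1.5 times the value in the report and 103 did not. Results in sorted cells and in diffTBLC kept their counts within 1.5 times under RLE scaling, no filter, DESeq2 and each library left out, and library totals moved PrE-T against TBLC to 20 higher and 12 lower, with Mcm6 at -0.16 and Mcm4 at -0.163. The same-numbered libraries did not deviate together in a steady way (correlations from -0.11 to 0.27, over 0.1 in 7 and 6 of the 28 pairs of groups of the siRNA courses), so the numbers were not read as pairs. A replicate block added 1 gene lower in TBLC_PlaB- at 0 h, as did no filter (1). It left 0 higher for the slope difference of diffTBLC and TBLC and 1 lower for that of siVirma and siNC1, and it moved no other count by over 1.5 times. In siVirma without Actinomycin D, no filter and DESeq2 each left 2 higher.

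Library totals left 4 lower in siVirma and 8 lower in siIgf2bp3 at 0 h, 9 higher in siIgf2bp3 over 1 to 3 h and 7 higher with anti-IGF2BP3. Over 1 to 3 h in TBLC_PlaB-, DESeq2 gave 4 higher and 2 lower, 2 h alone 2 and 1, and 3 h alone 4 and 2. In siVirma 2 h alone gave 11 and 8 and 3 h alone 9 higher, with medians of 0 and -0.021, and in siIgf2bp3 2 h alone gave 2 and 2. The median of siIgf2bp3 at 0 h turned to -0.001 with no filter and -0.013 with only the libraries compared.

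For slopes, library totals gave 9 higher and 14 lower in TBLC (median -0.003), 6 and 18 in diffTBLC (-0.024), 4 and 19 in TBLC_Ctrl (-0.035), 6 and 26 in TBLC_PlaB- (-0.052), 8 lower in siNC1, 3 higher in siVirma (-0.03), 7 lower in siNC2 and 3 and 24 in siIgf2bp3. Ribosomal protein scaling gave 0 and 41 (-0.192), 0 and 42 (-0.214), 0 and 43 (-0.191), 0 and 43 (-0.242), 0 and 1, 0 higher (-0.174), 0 and 1, and 0 and 43 in the same order. Single slopes turned under it to -0.123 for Mcm5, -0.094 for Lig1, -0.045 for Prim2, -0.217 for Pole and -0.099 for Tyms in TBLC, and to -0.203, -0.149, -0.182 and -0.037 for Mcm5, Lig1, Prim2 and Tyms in diffTBLC; library totals turned Pole in TBLC to -0.028 and Mcm5 in diffTBLC to -0.014. Without the 0 h libraries, 8 slopes were higher in siVirma and 7 in siNC2.

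The slope difference of diffTBLC and TBLC gave 2 higher and 2 lower with RLE factors, 2 lower with library totals, 0 higher with no filter, 0 and 0 with ribosomal proteins and 14 and 9 without 0 h. That of TBLC_PlaB- and TBLC_Ctrl gave 1 higher with no filter and 5 and 5 without 0 h. That of siVirma and siNC1 gave 0 lower with library totals, no filter, ribosomal proteins or no 0 h. That of siIgf2bp3 and siNC2 gave 3 higher with library totals, 0 and 43 with ribosomal proteins (Rfc2 -0.219, Tyms -0.268) and 0 and 0 without 0 h.

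With each replicate left out in turn, counts ranged from 0 to 1 lower in TBLC_PlaB- at 0 h, and from 2 to 3 higher and 0 to 1 lower in siVirma. Slopes ranged from 3 to 4 lower in siNC1, 0 higher and 3 to 5 lower in siVirma, 10 to 11 higher in siNC2 and 4 to 6 higher in siIgf2bp3. Slope differences ranged from 0 to 2 higher and 0 lower for diffTBLC and TBLC, 0 lower for siVirma and siNC1, and 0 to 10 higher and 0 to 13 lower for siIgf2bp3 and siNC2. The causes of these shifts were not tested. With 2 libraries a group and no spike-in, a slope is no absolute rate.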

Other observations

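The 2 libraries labelled TBLC2, kept in 2MYCP medium, have no comparison group and were scaled on their own. Their D-type cyclin levels were 527 and 506 CPM for Ccnd1, 408 and 379 for Ccnd2 and 161 and 172 for Ccnd3. Ccne1 was at 64.3 and 65.5 CPM and Cdc6 at 36.6 and 33.7. Cdt1 was at 114 and 116 CPM and its inhibitor Gmnn at 31.7 and 37.5. Of the helicase subunits, Mcm2 was at 252 and 255 CPM and Mcm6 at 186 and 181. Pola1 was at 92.6 and 90.03 CPM and Rrm2 at 188 in both libraries. The summed level of 16 fibroblast and feeder markers was 2590 to 2692 CPM in TBLC2. In TBLC it was 1483 to 1535 in the sorted-cell table and 504 to 513 at 0 h of the time course. That of 12 primitive endoderm markers was 3548 to 3589 CPM in TBLC2, against 2125 to 2185 and 495 to 509. The part of these markers in the levels above was not tested.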
